A study of Mus musculus with 6 samples.

Results

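Tumor cells and antigen-presenting cells carry surface proteins that T cells, NK cells and macrophages read through paired receptors, and the 10 genes described here encode such ligands. They are *Cd274* (PD-L1), *Pdcd1lg2* (PD-L2), *Cd80*, *Cd86*, *Cd276* (B7-H3), *Icosl*, *Pvr* (CD155), *Nectin2* (CD112), *Cd47* and *Lgals9* (galectin-9). They were taken by gene name from the 40166 genes of the count table, each matching a single gene. To describe how these ligands behaved in melanoma under rigosertib (RGS), bulk RNA sequencing was analysed from 6 subcutaneous tumors of the mouse line YUMM3.3, a BRAF-mutant melanoma line grown in C57BL/6 mice. Vehicle mice received water and RGS mice received RGS at 300 mg/kg, in both cases by oral gavage 5 days a week, with 3 tumors in each group collected after 17 days of treatment. The study's methods give an age of 8 to 10 weeks for its mice and all 6 tumors derive from the same cell line, whose response need not be that of other melanomas.

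PD-L1 and PD-L2 bind PD-1 and dampen activated T cells, while CD80 and CD86 costimulate through CD28 and are also bound by the inhibitory receptor CTLA-4. ICOSL costimulates through ICOS, and PVR and NECTIN2 are read both by the activating receptor CD226 and by the inhibitory receptor TIGIT. CD47 is the signal that keeps macrophages from engulfing a cell, through SIRPα, and galectin-9 is a secreted lectin that binds TIM-3. In melanoma, PD-L1 is induced by interferon-γ through JAK kinases, a route that runs by way of the transcription factor IRF1.

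The libraries held 13837932 to 32555494 counts, with each of the vehicle libraries deeper than any of the RGS ones. Levels are given as CPM, a gene's counts relative to the library total scaled by TMM factors, on which 3 counts, the floor used here, equal 0.0856 to 0.226 CPM depending on the library. The floor takes in counting error and nothing else. The tumors were checked against markers of the cells they could hold. *Ptprc* (CD45), which marks all leukocytes, had 0 counts in all 6 tumors, as did the macrophage marker *Adgre1*, the dendritic marker *Itgax*, the T cell markers *Cd3e*, *Cd3d* and *Cd8a* and the B cell marker *Ms4a1*. *Itgam* had 4 counts in RGS replicate 12 and none elsewhere. Of the melanocytic genes, *Tyr*, *Dct* and *Mlana* were at 0 in every tumor and *Sox10* had 18 counts in RGS replicate 11 alone, while *Mitf* was present with 74 to 261 counts. The defining pigment-cell markers of a melanoma were thus at or near 0 in these libraries. Other genes used as markers of leukocytes were present and rose with RGS, *Laptm5* from 176 ± 36.8 to 900.2 ± 60.3 CPM and *Cd53* from 31.1 ± 2.61 to 82.3 ± 6.29 CPM (SD, n = 3 each), so the leukocyte lists do not read one way. In bulk tumors, fewer cells of a type and less RNA per cell cannot be told apart.

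The upstream sequences of the 3 ligands with the largest called changes, and of *Cd80*, the other member with a motif match, are shown because they are the stretch in which interferon-responsive elements of such genes are usually sought. RefSeq start sites on GRCm38.p6 were found for 8 of the 10 genes (not *Cd86* or *Pvr*), and the 250 bases before each were read 5′ to 3′ on the gene's strand. They were searched on both strands for an interferon-γ-activated element (GAS, TTCNNNGAA), an IRF element (GAAANNGAA), an AP-1 site (TGANTCA), an NF-kB site (GGANNTTCC) and an E-box (CACGTG). Capitals mark a match. The windows were chr19:29367188-29367437 (+) for *Cd274*, chr19:29410669-29410918 (+) for *Pdcd1lg2*, chr11:78984925-78985174 (-) for *Lgals9* and chr16:38458683-38458932 (+) for *Cd80*.
Cd274: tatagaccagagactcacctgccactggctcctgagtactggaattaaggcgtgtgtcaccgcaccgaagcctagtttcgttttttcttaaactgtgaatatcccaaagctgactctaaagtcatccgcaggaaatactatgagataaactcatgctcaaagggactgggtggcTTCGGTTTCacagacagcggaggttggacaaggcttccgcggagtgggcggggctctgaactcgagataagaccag
Pdcd1lg2: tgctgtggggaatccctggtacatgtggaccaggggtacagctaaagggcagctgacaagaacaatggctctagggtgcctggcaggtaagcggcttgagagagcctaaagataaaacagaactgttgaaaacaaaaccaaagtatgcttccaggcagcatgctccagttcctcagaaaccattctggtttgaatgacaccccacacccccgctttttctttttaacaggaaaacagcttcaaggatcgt
Lgals9: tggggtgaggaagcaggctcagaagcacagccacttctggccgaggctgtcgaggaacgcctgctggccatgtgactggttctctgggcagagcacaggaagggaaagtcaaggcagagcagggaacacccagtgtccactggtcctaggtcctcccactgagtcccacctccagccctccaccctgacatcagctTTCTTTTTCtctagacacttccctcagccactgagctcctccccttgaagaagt
Cd80: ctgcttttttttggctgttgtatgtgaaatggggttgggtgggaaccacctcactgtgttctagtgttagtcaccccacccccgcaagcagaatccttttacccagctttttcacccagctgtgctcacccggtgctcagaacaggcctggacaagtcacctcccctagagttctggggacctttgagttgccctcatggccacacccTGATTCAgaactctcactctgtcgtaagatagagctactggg

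The *Cd274* window held an IRF match on the opposite strand, TTCGGTTTC, 76 to 68 bases before the start. *Lgals9*, which moved the other way in these tumors, also held an IRF match, TTCTTTTTC, 54 to 46 bases before its start. *Cd80* held an AP-1 match, TGATTCA, 42 to 36 bases before its RefSeq start. That start lies inside the span of the counted gene, which begins at 38455561, so the match is not upstream of the whole counted gene. None of the 5 motifs matched in the *Pdcd1lg2* window or in those of the other members. Among 32841 mouse promoters of the same length, 7.13% held the IRF letters, 7.02% the GAS letters, 6.75% the AP-1 letters, 3.59% the NF-kB letters and 6.02% the E-box. A match is a description of letters, not a bound site.

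Under RGS the ligand genes did not move as a block. Both PD-1 ligands, *Cd276* and *Cd47* rose, *Lgals9* fell, *Cd80*, *Pvr* and *Nectin2* did not pass the test, and *Cd86* and *Icosl* had too few counts to be tested. The groups were compared with the quasi-likelihood test of edgeR over the 15355 genes whose median count reached 5 in either group, with Benjamini-Hochberg adjustment and a threshold of 0.05. Of the 8 ligands tested, 4 were higher and 1 was lower. Over all tested genes 32.8% passed, 16.3% higher and 16.5% lower. All RGS tumors lay above all vehicle tumors for 4 of the 8 and below them for 2, where 21.7% and 24.0% of all tested genes did so. The median log2 fold change was 0.37 over the 8 and -0.05 over all tested genes.

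**Figure D1:**
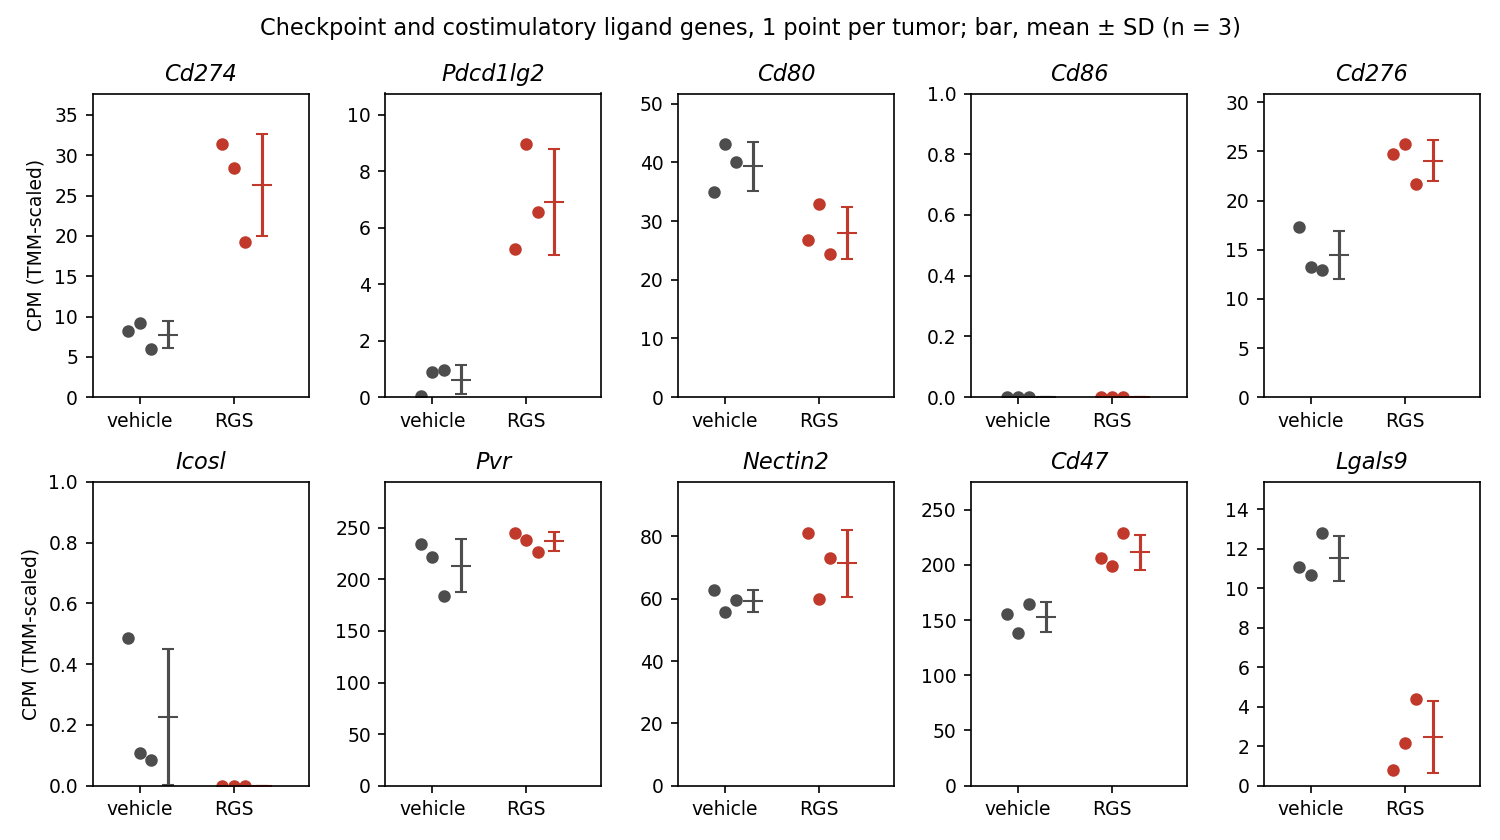
TMM-scaled CPM of the 10 ligand genes in each tumor, with vehicle in grey and RGS in red; each point is a tumor and the bars give the mean ± SD (n = 3). The axes differ between panels and start at 0. The RGS points lie above the vehicle points for *Cd274*, *Pdcd1lg2*, *Cd276* and *Cd47* and below them for *Cd80* and *Lgals9*. They also lie below for *Icosl*, which is at 0 with RGS and had too few counts to be tested. *Cd86* is at 0 throughout.

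*Cd274* encodes PD-L1 (ENSMUSG00000016496.7, chromosome 19, 29367455 to 29388095 on GRCm38). Its level was 8.16, 9.19 and 5.93 CPM in vehicle tumors 7, 8 and 9 and 31.4, 28.4 and 19.3 CPM in RGS tumors 10, 11 and 12. The lowest RGS tumor was above the highest vehicle tumor. The mean rose from 7.76 ± 1.67 to 26.3 ± 6.31 CPM (SD, n = 3 each), which was 3.39-fold (log2 fold change 1.76, SE 0.27, 95% interval 1.19 to 2.34, edgeR adjusted p = 7.34e-05). An annotated gene on the opposite strand, AC119228.1, shares exon positions with *Cd274* and was not analysed here. Whether reads were counted by strand is not given in the sources used here. By flow cytometry, the study reported unaltered PD-L1 protein with RGS on CD45-negative cells of YUMM3.3 tumors that carried CD40. Whole-tumor RNA is not the same measure.

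*Pdcd1lg2* encodes PD-L2 (ENSMUSG00000016498.9, chromosome 19, 29410919 to 29471157). It starts 22823 bases beyond the end of *Cd274* on the same strand, with 0 annotated genes between them. Its counts were 1, 25 and 22 under vehicle and 111, 119 and 107 under RGS, or 0.0285, 0.890 and 0.945 CPM against 5.25, 8.96 and 6.54 CPM. The RGS tumors were close to each other in counts despite their unequal depth, and vehicle tumor 7, the deepest library, was the lowest. The fitted change was 11.3-fold (log2 fold change 3.49, SE 0.77, 95% interval 1.88 to 5.10, edgeR adjusted p = 0.00176). Without vehicle replicate 7 it was 7.46-fold (adjusted p = 7.30e-04, edgeR).

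PD-L1 and PD-L2 bind the same receptor, and their balance was compared within each library, where scaling cancels. The log2 ratio of *Cd274* to *Pdcd1lg2* counts was 7.58, 3.34 and 2.62 in the vehicle tumors and 2.57, 1.66 and 1.55 in the RGS tumors. PD-L2 counts were lower than PD-L1 counts in every tumor, and the gap was narrower in all 3 RGS tumors than in any of the vehicle tumors. The mean ratio was 4.51 ± 2.68 with vehicle and 1.93 ± 0.561 with RGS (SD, n = 3 each; difference -2.59, exact two-sided permutation p = 0.1, the smallest that 3 against 3 allows). Without vehicle replicate 7 the difference was -1.05.

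*Jak2*, the kinase of the interferon-γ receptor, lies upstream of *Cd274*, 54374 bases away with 3 genes between. Its level was 35.9 ± 7.61 CPM in vehicle and 40.9 ± 9.90 CPM in RGS tumors (SD, n = 3 each; log2 fold change 0.19, edgeR adjusted p = 0.548). The log2 fold change was -0.04 without RGS replicate 12. The genes with the profile over the 6 tumors most like that of *Cd274* were *Zfp213*, *AA414768* and *Hr*, whose centred log2 CPM differed from it by a root mean square of 0.144, 0.164 and 0.175, among 12238 genes compared.

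Of the costimulatory ligands *Cd80*, *Cd86* and *Icosl*, *Cd80* alone had enough counts to be tested, and it did not pass. By flow cytometry in YUMM3.3 tumors, the study reported more CD80 and ICOSL protein with RGS on CD45-negative cells that carried CD40. The RNA levels here are from whole tumors, so the measures differ. *Cd80* (ENSMUSG00000075122.5, chromosome 16, 38455561 to 38496335) encodes the CD28 and CTLA-4 ligand B7-1. Its level was 34.9, 43.1 and 40.1 CPM in the vehicle tumors and 26.7, 32.9 and 24.4 CPM in the RGS tumors. The 3 RGS tumors all lay below the vehicle tumors, with means of 39.3 ± 4.16 and 28.0 ± 4.40 CPM (SD, n = 3 each). The log2 fold change of -0.49 (SE 0.20, 95% interval -0.91 to -0.07 for the gene on its own) did not pass the threshold after adjustment (edgeR adjusted p = 0.0663). It passed without vehicle replicate 7 (adjusted p = 0.0349, edgeR) and without RGS replicate 11 (adjusted p = 0.0480, edgeR), and also with upper-quartile factors (adjusted p = 0.0491, edgeR) and with libraries scaled by total count alone (adjusted p = 0.0248, edgeR). The nearest profiles to *Cd80* were those of *Pkig*, *Maf1* and *Pold2*, at root mean square differences of 0.0407, 0.0411 and 0.0473.

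*Cd86* (ENSMUSG00000022901.13, chromosome 16, 36603869 to 36666081), the other CD28 and CTLA-4 ligand, had 0 counts in all 6 tumors. A count of 0 allows a level of up to 0.0856 CPM in the deepest library and 0.226 CPM in the shallowest. The ratio of *Cd80* to *Cd86* was therefore not computed. *Icosl* (ENSMUSG00000000732.9, chromosome 10, 78069302 to 78083913) encodes the ICOS ligand, and its counts were 17, 3 and 2 under vehicle and 0 in each RGS tumor. Its counts stood above the floor of 3 only in vehicle tumor 7, the deepest library, and it was below the filter on low counts. With no filter it had an edgeR adjusted p of 0.211, and it ranged from 0.192 to 0.246 over the alternatives in which the gene was tested.

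*Cd276* (ENSMUSG00000035914.11, chromosome 9, 58524298 to 58555437) encodes B7-H3, a B7 family protein found on many solid tumors. Its level was 17.3, 13.2 and 12.9 CPM in the vehicle tumors and 24.7, 25.8 and 21.7 CPM in the RGS tumors. The groups did not overlap, and the mean rose from 14.5 ± 2.45 to 24.1 ± 2.11 CPM (SD, n = 3 each), 1.66-fold (log2 fold change 0.73, SE 0.23, 95% interval 0.24 to 1.22, edgeR adjusted p = 0.0218). The call was lost without vehicle replicate 8 (adjusted p = 0.0967), vehicle replicate 9 (0.0803), RGS replicate 10 (0.0521) or RGS replicate 11 (0.0657), and with libraries scaled by total count alone (0.0699, all edgeR). Exons of Gm10657, with 0 to 25 counts, share positions with it.

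The ligands of TIGIT and CD226 did not pass the test. *Pvr* (ENSMUSG00000040511.14, chromosome 7, 19903578 to 19921160) was at 234, 222 and 184 CPM in the vehicle tumors and 245, 238 and 227 CPM in the RGS tumors, with overlapping ranges. Its log2 fold change was 0.15 (SE 0.15, 95% interval -0.17 to 0.47, edgeR adjusted p = 0.483). *Nectin2* (ENSMUSG00000062300.14, chromosome 7, 19716644 to 19750483) was at 62.8, 55.7 and 59.7 CPM in the vehicle tumors and at 81.2, 59.9 and 73.0 CPM in the RGS tumors. RGS tumor 11 lay within the vehicle range, and the log2 fold change was 0.27 (SE 0.17, 95% interval -0.09 to 0.63, edgeR adjusted p = 0.254). The log2 ratio of *Pvr* to *Nectin2* counts was 1.84 ± 0.190 with vehicle and 1.74 ± 0.219 with RGS (SD, n = 3 each; difference -0.10, exact two-sided permutation p = 0.8).

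*Cd47* (ENSMUSG00000055447.19, chromosome 16, 49800533 to 49915010) was at 155, 138 and 165 CPM in the vehicle tumors and 206, 199 and 229 CPM in the RGS tumors. Each RGS tumor exceeded each vehicle tumor. The mean rose from 153 ± 13.7 to 211 ± 15.8 CPM (SD, n = 3 each), 1.38-fold (log2 fold change 0.47, SE 0.15, 95% interval 0.15 to 0.79, edgeR adjusted p = 0.0226). It was the smallest called change among the members. It was lost without vehicle replicate 8 (adjusted p = 0.139), RGS replicate 10 (0.0542), RGS replicate 11 (0.0576) or RGS replicate 12 (0.116), and with libraries scaled by total count alone (log2 fold change 0.33, adjusted p = 0.112, all edgeR). *Qpctl*, the enzyme that modifies CD47 so that SIRPα can bind it, went from 9.65 ± 0.881 to 16.2 ± 3.17 CPM on average (SD, n = 3; log2 fold change 0.75, edgeR adjusted p = 0.0435). That call was lost without vehicle replicate 8 (adjusted p = 0.151), vehicle replicate 9 (0.0943), RGS replicate 10 (0.146) or RGS replicate 12 (0.0732). It was also lost with upper-quartile factors (0.0525), scaling by total count alone (0.105), no filter on low counts (0.0643) and thinned counts (0.0668, all edgeR), in all 8 of 14 alternatives. *Qpctl* also shares exon positions with *Fbxo46* on the opposite strand, which had 245 to 506 counts.

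*Lgals9* (ENSMUSG00000001123.15, chromosome 11, 78962974 to 78984946) was the member that fell. It had 11.04, 10.7 and 12.8 CPM in the vehicle tumors and 0.804, 2.18 and 4.40 CPM in the RGS tumors, from 387, 300 and 298 counts and 17, 29 and 72 counts. The vehicle tumors were close together, the RGS tumors were spread widely, and the groups did not overlap. The mean fell from 11.5 ± 1.14 to 2.46 ± 1.82 CPM (SD, n = 3 each), 4.70-fold (log2 fold change -2.23, SE 0.48, 95% interval -3.24 to -1.22, edgeR adjusted p = 0.00153). Without RGS replicate 12, the highest of its group, it was 8.08-fold lower (adjusted p = 1.68e-04, edgeR).

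The receptors of these ligands were read from the same libraries. *Pdcd1* (PD-1), *Ctla4*, *Icos*, *Cd226* and *Cd96* had 0 counts in all 6 tumors. *Cd28* had 4 counts in vehicle tumor 8 only and *Pvrig*, a NECTIN2 receptor, 14 counts in vehicle tumor 9 only. The other 3 of the 10 receptors could be tested, and 1 rose, where 16.3% of all tested genes were higher. This was *Havcr2*, which encodes TIM-3, the receptor that galectin-9 binds. It was at 2.42, 1.35 and 2.36 CPM in the vehicle tumors and 23.8, 22.1 and 22.3 CPM in the RGS tumors, groups far apart with little spread. The rise was 11.1-fold (log2 fold change 3.47, SE 0.32, edgeR adjusted p = 1.97e-07), opposite in direction to *Lgals9*.

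*Tigit*, the inhibitory receptor of PVR and NECTIN2, was at 5.31, 5.70 and 2.66 CPM in the vehicle tumors and 10.4, 7.83 and 9.36 CPM in the RGS tumors. The groups did not overlap, but the log2 fold change of 1.01 (SE 0.39) did not pass the threshold (edgeR adjusted p = 0.0538). It passed without RGS replicate 11 (adjusted p = 0.0479, edgeR) and with DESeq2 (adjusted p = 0.0352). *Sirpa*, the CD47 receptor, was at 12.2 ± 2.80 CPM in vehicle and 13.5 ± 5.93 CPM in RGS tumors (SD, n = 3 each; log2 fold change 0.15, edgeR adjusted p = 0.757), and its sign turned without RGS replicate 10 (-0.26). In the same libraries the pan-leukocyte genes *Laptm5* (log2 fold change 2.35) and *Cd53* (1.41) and the macrophage and monocyte gene *Cd14* (1.66) rose with RGS. *Flt3* and *Trac* were also higher, though both passed the count filter only through the RGS tumors. From the same lists, *Cd68* (0.24), *Zbtb46* (-1.12) and *Batf3* (-2.89) did not pass, and *Ptprc*, *Cd3e* and *Cd8a* were at 0. *Batf3* passed the count filter only through the vehicle tumors. The part of such cells in the *Havcr2* and *Tigit* values was not tested.

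**Figure D2:**
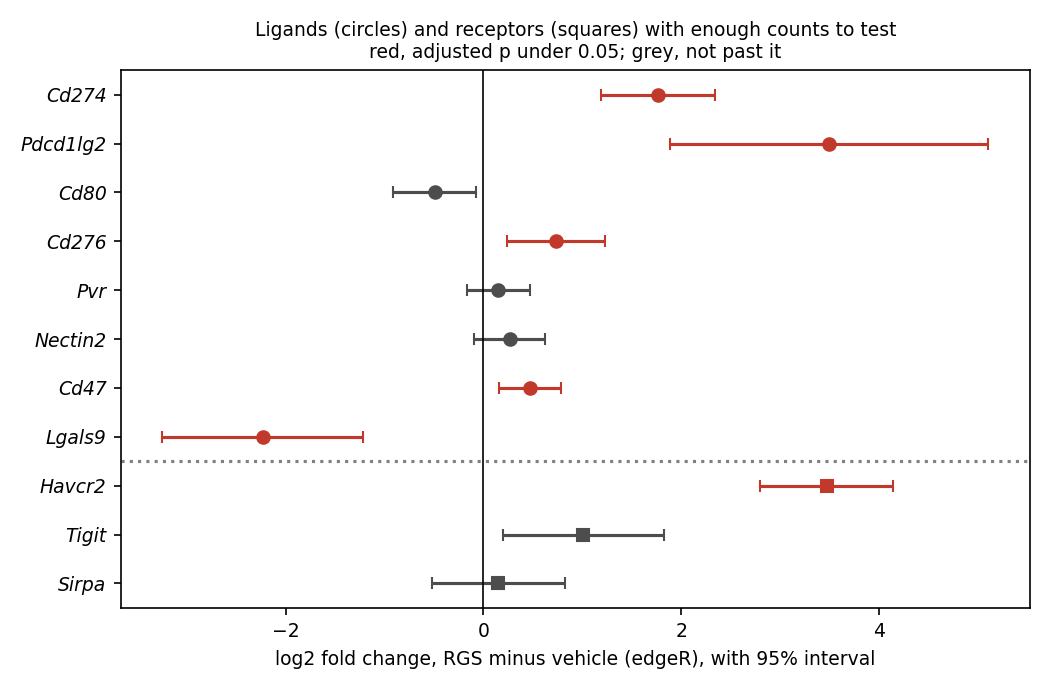
Log2 fold change of RGS minus vehicle with its 95% interval for the 8 ligand genes (circles) and 3 receptor genes (squares) that could be tested, edgeR, n = 3 tumors each; red marks an adjusted p under 0.05. *Pdcd1lg2* (3.49) and *Havcr2* (3.47) lie farthest to the right, *Lgals9* (-2.23) farthest to the left, and the intervals of *Pvr*, *Nectin2* and *Sirpa* span 0.

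Genes known to control PD-L1 or CD47 were described as a list of 15, all tested, of which 2 were higher, 4 were lower and 9 did not pass. Over all tested genes, 16.3% were higher and 16.5% were lower. The median log2 fold change of the list was 0.03 against -0.05 over all tested genes. *Irf1*, the interferon-responsive transcription factor, was at 49.5 ± 2.68 CPM in vehicle and 17.4 ± 4.47 CPM in RGS tumors (SD, n = 3 each; log2 fold change -1.51, SE 0.22, edgeR adjusted p = 3.49e-05). It moved in the same direction as *Lgals9* and opposite to *Cd274* and *Pdcd1lg2*. The receptor subunit *Ifngr1* was at 53.9 ± 5.13 and 50.5 ± 5.23 CPM (mean ± SD, n = 3 each; log2 fold change -0.10, edgeR adjusted p = 0.718), and its difference was 0.0017 without vehicle replicate 8.

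Other called PD-L1 and CD47 regulators on the list moved in both directions. *Myc*, a transcription factor reported to drive *Cd274* and *Cd47*, fell from 322 ± 19.9 to 145 ± 15.3 CPM on average (SD, n = 3; log2 fold change -1.15, edgeR adjusted p = 1.27e-05). *Hif1a*, the hypoxia factor, named after its values were seen, fell by 0.82 on the log2 scale (edgeR adjusted p = 0.00318). *Rela*, the NF-kB subunit p65, rose from 75.1 ± 16.5 to 122 ± 14.5 CPM on average (SD, n = 3; log2 fold change 0.70, edgeR adjusted p = 0.00579).

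**Figure D3:**
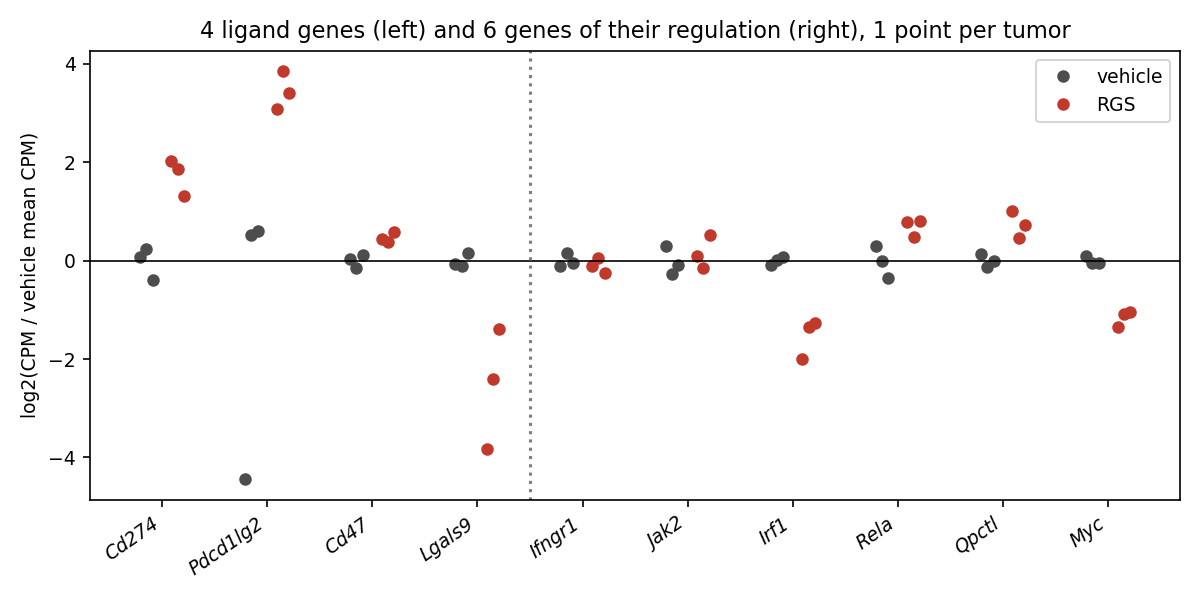
Level in each tumor relative to the vehicle mean, as log2(CPM / vehicle mean CPM), for 4 ligand genes (left of the dotted line) and 6 genes of their regulation (right); grey points are vehicle and red points RGS tumors. *Irf1* and *Myc* lie below 0 in all 3 RGS tumors, as does *Lgals9*, while *Cd274* and *Pdcd1lg2* lie above; the low grey point of *Pdcd1lg2* is vehicle tumor 7, with 1 count.

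Of 15 other ligands of immune cells, 14 were matched by name and 11 could be tested. Of the 11, 4 were higher, 0 lower and 7 not past the threshold, where 16.3% of all tested genes were higher. Their median log2 fold change was 0.81 against -0.05 over all tested genes. *Cd24a*, a further signal against engulfment, rose from 6.00 ± 1.59 to 55.5 ± 2.26 CPM on average (SD, n = 3; log2 fold change 3.20, edgeR adjusted p = 9.89e-09). *Ceacam1*, an inhibitory adhesion molecule, rose from 9.21 ± 1.85 to 39.6 ± 6.64 CPM on average (SD, n = 3; log2 fold change 2.10, edgeR adjusted p = 2.17e-06). *Calr*, whose protein calreticulin promotes engulfment when exposed on the surface, rose from 503 ± 40.4 to 1576 ± 71.6 CPM on average (SD, n = 3; log2 fold change 1.65, edgeR adjusted p = 1.33e-07). *Vsir* (VISTA), named after its values were seen, rose by a log2 fold change of 0.81 (edgeR adjusted p = 0.00779). *Cd40*, the costimulatory receptor that the study followed on melanoma cells, gave RNA counts of 0, 11 and 0 under vehicle and 16, 15 and 1 under RGS. In YUMM3.3 tumors the study measured CD40 protein, by cytokine array and flow cytometry, and reported a rise with RGS. Bulk RNA is not the same measure. The 2 groups overlapped, and the log2 fold change of 2.26 (SE 1.70) did not pass the threshold. *Cd40* passed the count filter only through the RGS tumors, so its p-value is not given. Leaving out 1 tumor moved the log2 fold change to 1.61 (without RGS replicate 11), 1.67 (without vehicle replicate 7) or 1.72 (without vehicle replicate 9). It was 2.11 without RGS replicate 10 and 2.77 without RGS replicate 12. Without vehicle replicate 8 the vehicle group was at 0 counts, and the fitted 6.84 then depends on the prior count.

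Compared per length, as CPM per kilobase of the deposited gene length, the order of the ligands with vehicle was *Pvr* (34.8 ± 4.25), *Cd47* (24.3 ± 2.18), *Nectin2* (17.0 ± 1.01), *Cd80* (10.6 ± 1.12), *Lgals9* (5.39 ± 0.532), *Cd276* (3.95 ± 0.670), *Cd274* (2.14 ± 0.460) and *Pdcd1lg2* (0.378 ± 0.313; SD, n = 3 each). *Icosl* and *Cd86* came last. In that order the ranges of *Pdcd1lg2* and *Icosl* overlapped, and no other neighbours did. With RGS the top 4 were in the same order, *Pvr* (38.7 ± 1.54), *Cd47* (33.7 ± 2.51), *Nectin2* (20.4 ± 3.09) and *Cd80* (7.56 ± 1.19). They were followed by *Cd274* (7.27 ± 1.74), *Cd276* (6.58 ± 0.575), *Pdcd1lg2* (4.21 ± 1.14) and *Lgals9* (1.15 ± 0.850; SD, n = 3 each). The ranges of *Cd80* and *Cd274*, and of *Cd274* and *Cd276*, overlapped, so PD-L1 transcript was not distinguishable from either neighbour under RGS, while with vehicle it was below both. *Lgals9* moved from the fifth place to the eighth.

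The ligands were set beside the marker lists of other cell types. The summed level of the 10 ligands was 481 to 524 CPM in the vehicle tumors and 595 to 622 CPM in the RGS tumors. The 4 pan-leukocyte genes summed to 187 to 248 CPM and 919 to 1028 CPM, carried by *Laptm5* (log2 fold change 2.35, edgeR adjusted p = 9.00e-09) and *Cd53* (1.41, edgeR adjusted p = 5.43e-06), with *Ptprc* at 0. The 10 macrophage and monocyte genes summed to 65.1 to 71.0 and 83.0 to 107 CPM, nearly all of it *Cd68* and *Cd14*. *Cd14* rose (log2 fold change 1.66, edgeR adjusted p = 1.36e-04), while *Csf1r* and *Lyz2* had at most 2 counts in any tumor. The 7 dendritic genes summed to 5.96 to 8.85 and 8.28 to 14.2 CPM, with *Itgax* and *Siglech* at 0. Of 3 tested, 1 was called higher, against 16.3% of all tested genes. This was *Flt3*, with 21, 0 and 2 counts under vehicle and 135, 87 and 176 under RGS. It passed the count filter only through the RGS tumors, so its p-value is not given. The other 2, named after their values were seen, went the other way and did not pass. These were *Zbtb46* (log2 fold change -1.12, edgeR adjusted p = 0.0919) and *Batf3* (-2.89), the latter with at most 8 counts. *Batf3* passed the count filter only through the vehicle tumors, so its p-value is not given.

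The 10 T and NK cell genes summed to 0.0285 to 0.602 CPM with vehicle and 0.612 to 1.42 CPM with RGS. With RGS all of it was *Trac*, which had 0 counts in every vehicle tumor and 30, 16 and 10 in the RGS tumors. *Trac* passed the count filter only through the RGS tumors, so its p-value is not given. Of the 10 genes, 6 were at 0 throughout. The 4 B cell genes summed to 0 to 0.314 and 0 to 0.473 CPM. The 8 melanocytic genes summed to 4.94 to 7.67 and 4.53 to 12.7 CPM, and the 4 keratinocyte genes to 0.399 to 1.72 and 0.852 to 2.56 CPM. No gene was called in these 3 lists, but only 0 B cell, 2 melanocytic and 1 keratinocyte genes had enough counts to be tested. That is too few to show a lack of change. The part of these markers in the ligand differences was not tested.

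**Figure D4:**
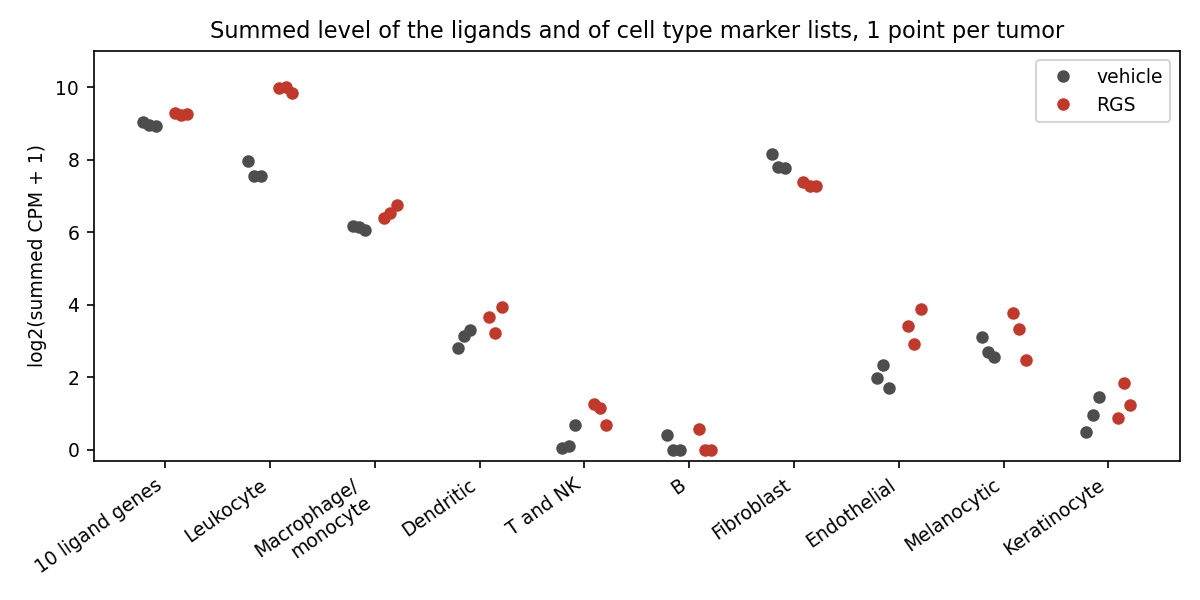
Summed level of the 10 ligand genes and of each marker list in each tumor, as log2(summed CPM + 1), with vehicle in grey and RGS in red. The leukocyte list is higher in all RGS tumors through *Laptm5* and *Cd53*, while the T and NK, B and keratinocyte lists stay below 3 CPM in every tumor.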

How the data were processed

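RNA from 6 tumors was sequenced as paired-end reads of 150 bases. Per the labels, the submitters' processing notes name cutadapt 1.18, FastQC 0.11.7, STAR 2.7.1a, featureCounts 1.6.4 and the build mm10. How strand and reads shared between genes were handled is not given in the sources used here. The table the authors deposited holds read counts per gene without normalization, with each gene's length and position. The labels number tumors 7 to 9 (vehicle) and 10 to 12 (RGS). They do not state how the tumors were assigned to animals, so p-values measure the spread between these samples, and counts of all pairs of replicates differed by more than sampling noise. Of the 40166 gene identifiers, 40013 were in GENCODE M21 (GRCm38) and 39178 had the same start and end there.

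The 15355 genes whose median count reached 5 in either group were compared in R 4.3.3 with edgeR 4.0.16 (TMM factors, quasi-likelihood F test, Benjamini-Hochberg, threshold 0.05). The SE is the log2 fold change over the square root of F, and 95% intervals use the t quantile. Ratios of related ligands (0.5 counts added) were compared by an exact two-sided permutation test. Likeness of profiles used genes with a mean of at least 1 CPM and log2 CPM with a prior count of 2. Alternatives were other scaling factors, DESeq2 1.42.0, other filters, robust dispersions, thinned counts and each tumor left out. The procedure was tested on simulated data with known changes.

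The members and gene lists were chosen with earlier results of these data known. The genes named were all ligands and receptors. From each other list, up to 3 called genes in each direction with the largest log2 fold change were named. *Cd40*, *Ifngr1*, *Irf1*, *Jak2*, *Ptprc*, *Itgam*, *Adgre1* and *Sox10* were named whatever their values, as were the 3 nearest profiles to *Cd274* and *Cd80*. *Icosl* was not tested and has no nearest profiles. Other marker genes are named for their counts. The upstream sequences are from RefSeq. Some listed genes that enter the counts are not reported here by name.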

Additional observations from a re-analysis of the deposited data

How the results depend on the processing

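With libraries scaled by total count alone, the median log2 fold change of all tested genes lay 0.14 below that with TMM factors, and 1870 genes were higher and 3152 lower (37.2% of calls higher) against 2503 and 2533 (49.7%). Under that scaling 2 ligands were called higher (*Cd276* and *Cd47* lost) and 2 lower (*Cd80* added); with upper-quartile factors 2 were called lower, again with *Cd80*. DESeq2 called 2 receptors, *Havcr2* and *Tigit*. Leaving out 1 tumor at a time, 2 to 4 ligands were called higher, 1 to 2 lower, and 1 to 2 receptors were called. The calls over all tested genes also changed in these fits. They ran from 3493 of 16088 genes without vehicle replicate 8 to 5249 of 15942 without vehicle replicate 7, against 5036 of 15355 with all tumors. The log2 fold changes ranged over these fits from -0.26 to 0.37 for *Sirpa*, -0.18 to 0.0017 for *Ifngr1* and -0.038 to 0.37 for *Jak2*, so no direction can be given for these 3. *Cd274* (1.61 to 1.92), *Pdcd1lg2* (2.90 to 3.93) and *Lgals9* (-3.01 to -1.79) kept their direction and their call in all 14 alternatives. No paired analysis was possible because the groups share no replicate number. *Cd86*, *Icosl* and 7 of the 10 receptors had too few counts to be tested, and whether depth or absence of the transcript accounts for this was not tested. The RGS libraries were all shallower than the vehicle ones.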

Other observations

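Among the other ligands, *Tnfrsf14* (HVEM, the ligand of BTLA), picked with its values known, gave counts of 61, 28 and 43 under vehicle and 7, 0 and 3 under RGS. The groups did not overlap in level, but the log2 fold change of -3.06 did not pass the threshold. *Tnfrsf14* passed the count filter only through the vehicle tumors, so its p-value is not given. *Nectin3*, a partner of the nectins, was at 47.2 ± 6.84 CPM in vehicle and 40.0 ± 4.20 CPM in RGS tumors (SD, n = 3 each; log2 fold change -0.24, edgeR adjusted p = 0.354). Stromal markers did not move together. Of 6 fibroblast genes 5 were tested, of which *Col3a1* (log2 fold change -0.90), *Pdgfra* (-0.70) and *Pdgfrb* (-2.20) were lower and *Dcn* (3.24) was higher. Their summed level was 215 to 282 CPM with vehicle and 152 to 165 CPM with RGS. Of 5 endothelial genes 3 were tested and *Cdh5* was higher (log2 fold change 3.47, edgeR adjusted p = 6.37e-04). The 5 had a summed level of 2.28 to 4.06 CPM with vehicle and 6.55 to 13.8 CPM with RGS. Over all tested genes 16.3% were higher and 16.5% lower.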
